A study of Homo sapiens with 2 samples.

Results

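Interleukin 11 (IL11), the other cytokines and receptors of the IL6 family that are named here, the shared IL10 receptor chain IL10RB, and the JAK1, STAT3 and SOCS3 genes that act below them were followed in RKO cells, an established human colorectal carcinoma line. The set holds 10 genes of the 54261 features in the count table: the ligands IL11 and LIF, the receptor chains IL6R, IL6ST, LIFR, OSMR and IL10RB, the kinase JAK1, the transcription factor STAT3 and the feedback inhibitor SOCS3. It was chosen because IL11 and IL10RB had low values in the siHNRNPM library, so their differences are given as a description and support nothing. Cells transfected with siRNA against HNRNPM, labelled as HNRNPM knockdown, were compared with cells transfected with a control siRNA, labelled as wild type. Each group had 1 RNA-seq library, and nothing says how many cultures stand behind it. Neither the sequence of either siRNA nor the hours between transfection and harvest are given in the sources used here.

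Most cytokines of the IL6 family signal through IL6ST, also called gp130, as a shared receptor chain, while IL31 uses IL31RA with OSMR instead. IL6 and IL11 first bind a private alpha chain, IL6R or IL11RA, and then recruit a pair of gp130 chains, whereas LIF joins gp130 to LIFR, and oncostatin M joins it to LIFR or OSMR. The paired chains bring Janus kinases together, of which JAK1 is the main one for gp130, and these phosphorylate STAT3, which enters the nucleus and switches on genes such as SOCS3, whose product binds gp130 and JAK and shuts the signal off. IL10RB serves a different group, since it is the common second chain for IL10, IL22, IL26 and the lambda interferons, and IL10 and IL22 also act through STAT3. In the intestine IL11 and IL6 act on epithelial and tumour cells, and much of the IL11 there comes from stromal cells. RNA levels alone do not show whether any of these receptors signalled.

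Reads assigned to genes numbered 13056118 in the siHNRNPM library, against 19931360 in the control library. HNRNPM itself, the check of the labels, had 79.6 CPM in the siHNRNPM library against 144 CPM in the control library, 55.2% of the control level (95% counting interval 51.3% to 59.2%). CPM is the read count per 1000000 reads of the library size after TMM scaling, and every interval covers counting error only, since variation between cultures was not measured. With 1 library per group no difference has a replicate check and no p-value is given. A gene counted as measured at a CPM of 1 or more in either library, which 12925 features reached, and a measured gene was called at least 2-fold lower or higher when its ratio passed 2-fold and its interval left out a ratio of 1. Of the epithelial markers, KRT8, KRT18, EPCAM and CDX2 were measured, while KRT19, VIL1, LGALS4 and CDX1 had at most 1 read in either library and CDH1 had 1 read in the siHNRNPM library and 10 in the control library. The 13 markers of liver cells summed to 35.1 CPM in the siHNRNPM library against 0.754 CPM in the control library. Of those 13, only ALB, AFP and SERPINA1 reached the measured level, all higher in the siHNRNPM library, and APOA1, TTR and HP had 0 reads in both libraries. The 7 fibroblast markers summed to 3.59 CPM in the siHNRNPM library against 1.56 CPM in the control library. Of those 7, COL1A1 with 21 against 13 reads and COL1A2 with 14 against 8 were measured and at least 2-fold higher, and DCN and THY1 had 0 reads in both libraries. The part of these differences in the results on IL11, which fibroblasts make, and on IL6R, IL6ST and SOCS3, which liver cells also express, was not tested.

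**Figure D1:**
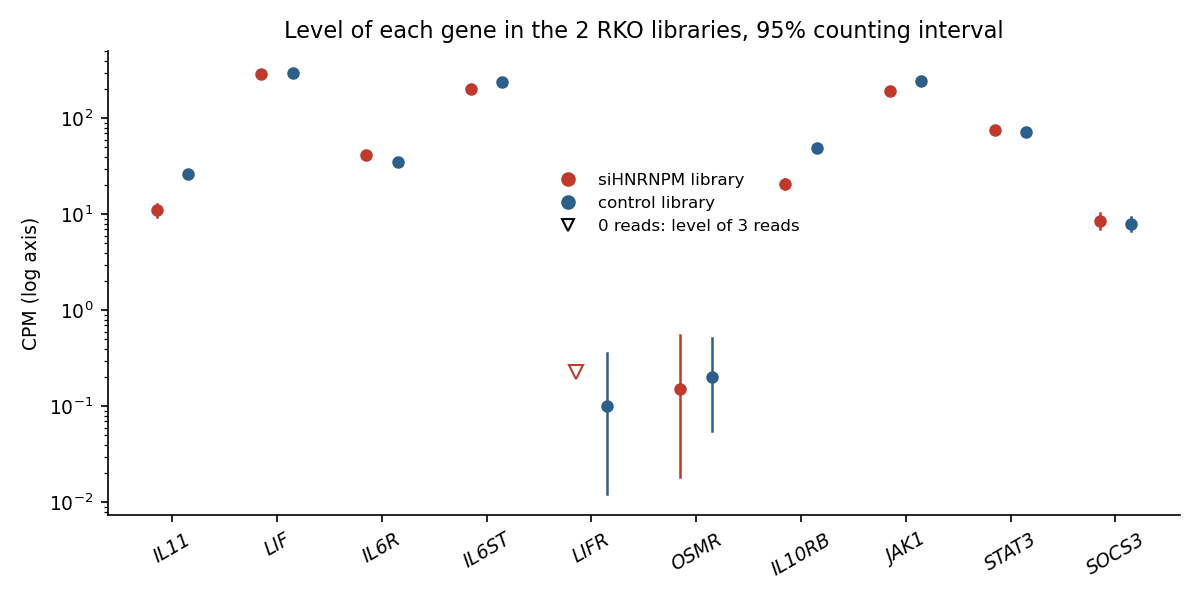
Level of each of the 10 genes in CPM (log axis) in the siHNRNPM library (red, left) and the control library (blue, right), with exact Poisson 95% intervals of the read count; the triangle marks 0 reads at the level of 3 reads. IL11 and IL10RB sit lower in the siHNRNPM library, and LIFR and OSMR lie far below the rest in both libraries. The other 6 measured genes have closer pairs of points, though the intervals of JAK1, IL6ST and IL6R do not overlap between libraries.

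IL11 was the more weakly read of the measured ligands of the set and differed most. It had 144 reads in the siHNRNPM library against 519 in the control library. That is 11.0 CPM (9.28 to 13.0) in the siHNRNPM library, against 26.1 CPM (23.9 to 28.4) in the control, and the intervals do not overlap. The siHNRNPM level was 42.2% of the control level (34.8% to 50.8%), a log2 ratio of -1.25 (-1.52 to -0.98), or 2.37-fold lower. IL11 is protein-coding and lies on the minus strand of chromosome 19 from 55364389 to 55370463 on GRCh38 (GENCODE 29, ENSG00000095752.6). Among the 2167 measured features whose mean CPM was within 1.5-fold of that of IL11, 3 had a lower ratio, and the central 95% of them ran from -0.68 to 0.59. The ratio was the 137th lowest of all 12925. Since IL11 was chosen as low in this same comparison, these ranks are a description and support nothing.

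LIF, the ligand that keeps mouse embryonic stem cells undifferentiated and a product of many carcinoma lines, was the most abundant of the 10 genes. It had 3820 reads in the siHNRNPM library against 5911 in the control library, or 292 CPM against 297 CPM. The log2 ratio was -0.03 (-0.09 to 0.03), an interval that spans a ratio of 1 and is narrow because of the depth. LIF and IL11 thus differed in their ratios, with intervals far from overlapping, and per kilobase of transcript IL11 stood at 0.0656 of the LIF level in the siHNRNPM library and 0.153 in the control library. The other ligands of the family were few. Of the 11 listed, CLCF1, which acts through the ciliary neurotrophic factor receptor, had a log2 ratio of -0.25 (-0.80 to 0.28) and EBI3, a subunit of IL27 and IL35, had 0.48 (-0.43 to 1.37). IL6, OSM, CNTF, IL27 and IL31 had 0 reads in both libraries, which allows up to 0.229 CPM in the siHNRNPM library, against 0.151 CPM in the control, at 3 reads.

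The IL6-family receptor chains of the set fell into a pair that was well read and a pair that was almost unread. IL6ST, the shared gp130 chain, had 2674 reads in the siHNRNPM library against 4700 in the control library, or 204 CPM against 236 CPM, with a log2 ratio of -0.21 (-0.28 to -0.14). IL6R, the IL6-binding chain, had 544 reads against 696, or 41.6 CPM in the siHNRNPM library against 35.0 CPM in the control library. Its log2 ratio of 0.25 (0.08 to 0.41) lay above a ratio of 1, the only such interval in the set. LIFR, the second chain for LIF, had 0 reads in the siHNRNPM library and 2 in the control library. OSMR, the oncostatin M chain, had 2 and 4 reads in those libraries, so for neither gene could a difference be detected at this depth. RKO cells thus gave many LIF reads and almost none of the chain that LIF joins to gp130. OSMR overlaps RICTOR on the opposite strand, and RICTOR had 1521 reads in the siHNRNPM library and 3020 in the control library, so reads at their shared end cannot be told apart.

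The private IL11 chain was also low. IL11RA had 8 reads in the siHNRNPM library against 33 in the control library, a log2 ratio of -1.44 (-2.77 to -0.30), from 0.611 CPM and 1.66 CPM. The interval is wide and runs from a slight to a more than 4-fold difference. IL27RA, which pairs with gp130 for IL27, had a log2 ratio of 0.00 (-0.17 to 0.17). Of the 8 receptor genes of the IL6 family, 4 were measured, 2 with an interval below a ratio of 1, 1 above it and 1 spanning it. Over all measured features 26.1% lay below and 22.0% above. CNTFR had 0 reads in both libraries.

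IL10RB, the common chain of the IL10 group, had nearly the same ratio as IL11 from more reads. It had 271 reads in the siHNRNPM library against 971 in the control library. That is 20.7 CPM (18.3 to 23.3) in the siHNRNPM library, against 48.8 CPM (45.8 to 52.0) in the control, and the intervals do not overlap. The log2 ratio was -1.24 (-1.44 to -1.04), or 42.4% of the control level (36.9% to 48.6%), and its whole interval lay beyond 2-fold lower. Among the 2859 measured features within 1.5-fold of its mean CPM, 1 had a lower ratio, and their central 95% ran from -0.58 to 0.50. IL10RB too was chosen as low in this comparison, so that rank supports nothing. IL10RB is protein-coding and lies on the plus strand of chromosome 21 from 33266358 to 33310187 on GRCh38 (ENSG00000243646.9).

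IL10RB lies in a cluster of receptor genes of the same class, in which its neighbour IFNAR1 was also lower, though less so, and IFNAR2 was higher. IFNAR2, a chain of the type I interferon receptor, ends 0.683 kilobases before it and had 763 reads in the siHNRNPM library against 905 in the control library, a log2 ratio of 0.36 (0.22 to 0.50). IFNAR1, the other chain of that receptor, starts 14.3 kilobases after it and had 797 reads against 2198, a log2 ratio of -0.86 (-0.98 to -0.74). IFNGR2, the second chain of the interferon gamma receptor, had 0.40 (-0.02 to 0.82), and its symbol is also annotated on an alternate sequence. In chromosome order IFNAR2 thus lay above a ratio of 1, IL10RB and IFNAR1 below it, and IFNGR2 spanned it. The intervals of IFNAR2, IL10RB and IFNAR1 do not overlap one another. The annotation also holds a readthrough gene, AP000295.1, that spans IFNAR2 and IL10RB on the same strand, and reads from exons it shares cannot be assigned with certainty. IL10RA, the chain that binds IL10 itself, had 81 and 125 reads in the siHNRNPM and control libraries and a log2 ratio of -0.02 (-0.44 to 0.39). IL22RA1, the chain that binds IL22, had 43 and 125 reads and -0.94 (-1.47 to -0.43). Tissue factor, F3, a distant relative of these receptors, had 0.83 (0.70 to 0.95). None of the 9 IL10-group and lambda interferon ligands listed had a read in either library. Of 12 listed receptors of the class, 10 were measured, 2 above a ratio of 1, 3 below and 5 spanning, near the 22.0% above and 26.1% below among all measured features. Their median log2 ratio was -0.17 against -0.01 for all measured features.

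**Figure D2:**
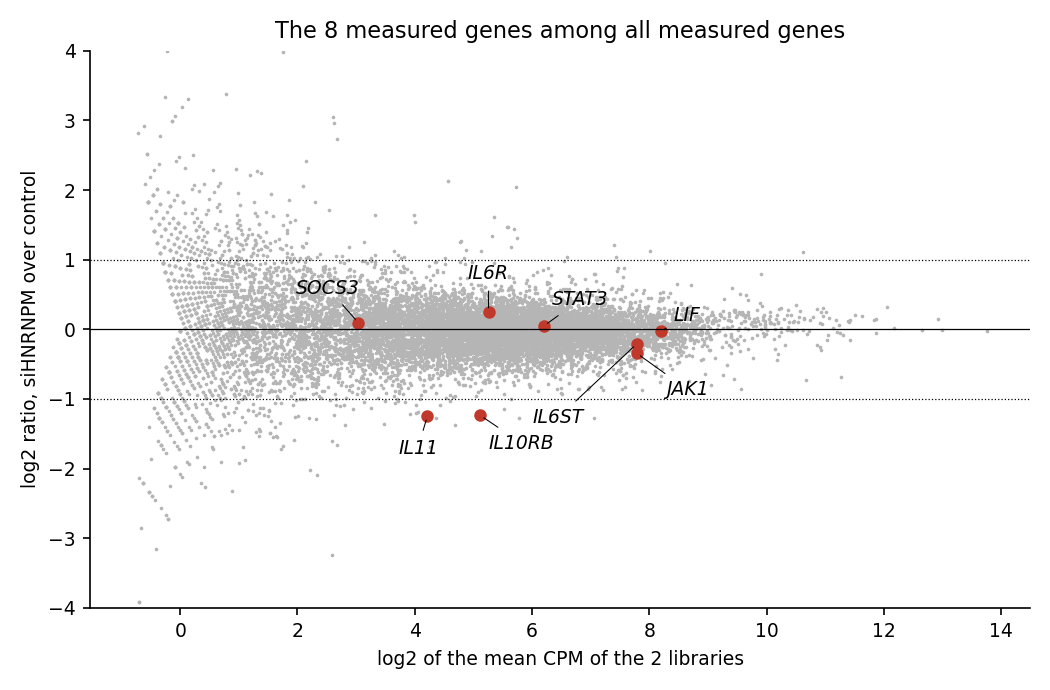
The log2 ratio, siHNRNPM over control (vertical axis), against the log2 mean CPM of both libraries (horizontal axis) for the 12925 measured features (grey) and the 8 measured genes of the set (red); dotted lines mark 2-fold, and 21 features lie beyond the vertical axis. IL11 and IL10RB lie under the lower line at intermediate abundance and the other 6 lie between the lines.

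Of the shared kinase and transcription factor, JAK1 lay slightly below a ratio of 1 and STAT3 spanned it. JAK1 had 2550 reads in the siHNRNPM library against 4928 in the control library, or 195 CPM against 248 CPM, and a log2 ratio of -0.35 (-0.42 to -0.28). Among the other Janus kinases TYK2, which pairs with IL10RB, had -0.14 (-0.22 to -0.05), and JAK2 and JAK3 had intervals that span a ratio of 1. JAK1 overlaps the end of RAVER2 on the opposite strand by a few bases, and RAVER2 had -0.26 (-0.41 to -0.12). STAT3 had 981 reads in the siHNRNPM library against 1440 in the control library, or 75.0 CPM against 72.4 CPM, and a log2 ratio of 0.05 (-0.07 to 0.17). STAT5A, 1.38 kilobases from STAT3, had -0.03 (-0.22 to 0.17). Among other STAT genes, STAT5B lay above a ratio of 1 at 0.17, STAT2 and STAT6 lay below it at -0.19 and -0.30, and STAT5A, like STAT3, spanned it.

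SOCS3, the feedback inhibitor that STAT3 induces, had 111 reads in the siHNRNPM library against 158 in the control library, or 8.48 CPM (6.98 to 10.2) against 7.95 CPM (6.76 to 9.29). The intervals overlap, and the log2 ratio of 0.09 (-0.27 to 0.45) has an interval within 1.5-fold either way, as far as counting error goes. Of the 15 measured negative regulators, 1 lay above a ratio of 1, 6 below it and 8 spanned it, with a median of -0.17, against 22.0% above and 26.1% below over all measured features. SH2B3, an adaptor that restrains JAK2, had 306 CPM in the siHNRNPM library against 512 CPM in the control library and a log2 ratio of -0.74 (-0.80 to -0.69). PTPN1, a phosphatase of Janus kinases, had -0.63 (-0.71 to -0.56), and SOCS5 had -0.61 (-0.80 to -0.42). SOCS4 lay slightly above, at 0.14 (0.03 to 0.25). The branch from gp130 to RAS through the phosphatase SHP2 had 1 of 6 genes above, 3 below and 2 spanning, against the same 22.0% and 26.1%. In it the docking protein gene GAB1 had -0.92 (-1.23 to -0.61), SHC1 had -0.38 (-0.43 to -0.33), and PTPN11, which encodes SHP2, had -0.01 (-0.06 to 0.05).

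**Figure D3:**
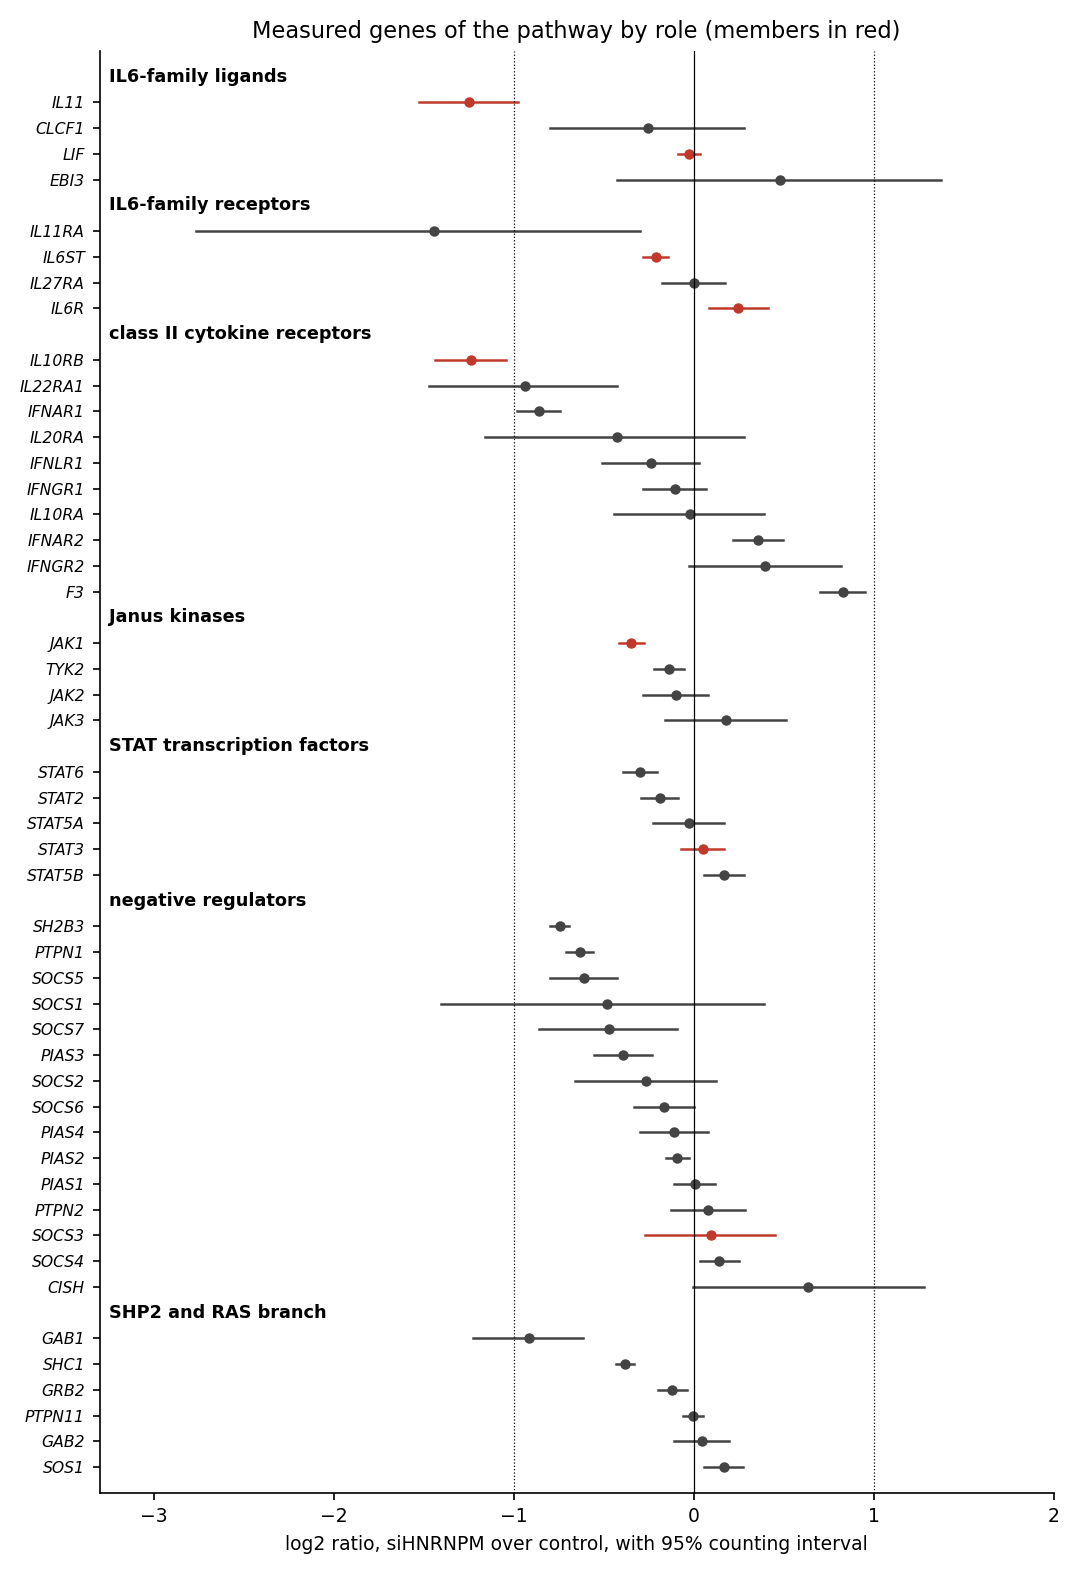
The log2 ratio, siHNRNPM over control, with its 95% counting interval for each measured gene of 7 lists, grouped by role, with genes of the set in red and dotted lines at 2-fold. IL11, IL11RA and IL10RB lie beyond the lower 2-fold line, and no gene shown lies beyond the upper one.

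Counted over the set, 8 of 10 genes were measured and LIFR and OSMR fell below a CPM of 1. Of those 8, IL11 and IL10RB were at least 2-fold lower, against 1.49% of all measured features, and 0 were at least 2-fold higher, against 2.45%. The interval of 4 (IL11, IL10RB, JAK1 and IL6ST) lay below a ratio of 1, against 26.1% of all measured features, that of IL6R lay above it, against 22.0%, and those of LIF, STAT3 and SOCS3 spanned it. Since the low values of IL11 and IL10RB chose the set, nothing is read from these counts. In the order of the log2 ratios, the intervals of IL11 and IL10RB overlapped each other and lay apart from those of the other 6. The intervals of LIF, STAT3, SOCS3 and IL6R overlapped in part.

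Levels were compared between genes per kilobase of the longest annotated transcript. In the siHNRNPM library LIF stood at 73.5 CPM per kilobase, JAK1 at 38.6, IL6ST at 22.6, STAT3 at 14.9, IL10RB at 9.71, IL6R at 7.03, IL11 at 4.82 and SOCS3 at 3.10 CPM per kilobase. In the control library LIF stood at 74.9 CPM per kilobase, JAK1 at 49.1, IL6ST at 26.1, IL10RB at 22.9, STAT3 at 14.3, IL11 at 11.4, IL6R at 5.92 and SOCS3 at 2.91 CPM per kilobase. No neighbours in either order had overlapping Poisson intervals except OSMR and LIFR at the bottom. By this length IL10RB was below STAT3 in the siHNRNPM library and above it in the control library, and IL11 was likewise below IL6R in the siHNRNPM library and above it in the control library. The order depends on the length used: with the median length of a gene's annotated transcripts, which include short fragments, IL6ST led at 334 CPM per kilobase in the siHNRNPM library, JAK1 followed at 292 and LIF stood at 128 CPM per kilobase. Both changes of place are lost with that length. IL10RB then stood at 15.4 CPM per kilobase in the siHNRNPM library and 36.4 in the control, below STAT3 at 64.9 and 62.7. IL11 stood at 9.87 and 23.4 in those libraries, below IL6R at 56.6 and 47.7.

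Genes known to be driven by STAT3 were mixed. Of the 21 measured of 24 listed, which include SOCS3, STAT3 and IL6ST themselves, 4 lay above a ratio of 1, 9 below it and 8 spanned it, with a median log2 ratio of -0.21 against -0.01 for all measured features. Over all measured features 22.0% lay above and 26.1% below. CCND1, SBNO2 and FOS, 3 of the 21, were at least 2-fold lower, against 1.49% of all measured features. The kinase gene PIM1 had 47.5 CPM in the siHNRNPM library against 73.5 CPM in the control library and a log2 ratio of -0.63 (-0.77 to -0.49). SBNO2, a transcriptional regulator induced by IL10, had 35 reads against 128 and -1.27 (-1.85 to -0.72), and has a copy on an alternate sequence. CCND1, encoding cyclin D1, and the immediate early gene FOS, which many other signals also drive, had -1.27 and -1.05. In the other direction the anti-apoptotic gene BCL2L1 had 355 CPM in the siHNRNPM library against 246 CPM in the control library and 0.53 (0.47 to 0.59), and CEBPB had 0.33 (0.15 to 0.50). BCL3 and ICAM1 had 0.00 (-0.30 to 0.28) and 0.01 (-0.06 to 0.08). None of the 14 acute-phase genes, which STAT3 drives in hepatocytes, reached a CPM of 1, and together they had 14 reads in the siHNRNPM library and 5 in the control library, 10 and 3 of them from CP, which encodes ceruloplasmin. Of the 7 genes that shed or sort the receptors, ADAM17, which cleaves IL6R from the cell surface, had 0.16 (0.08 to 0.24), and ADAM10 had -0.31 (-0.39 to -0.23).

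The sequence GTGAGAA is shown next, because 3′ UTRs that hold it had lower ratios across this table and because both low genes hold it. It was known from earlier results of these data. IL11 has 1 copy, present in all 3 of its annotated 3′ UTRs, 399 bases after the stop codon of the transcript with the longest coding sequence. IL10RB has 4 copies in alternative last exons. Of those, 2 lie in the 880-base 3′ UTR of the transcript with the longest coding sequence and 2 lie in a more distal last exon used by other annotated transcripts. IL6R and IL6ST have 1 copy each, present in 2 of 3 and in 3 of 10 annotated 3′ UTRs. LIF, LIFR, OSMR, JAK1, STAT3 and SOCS3 have none in any annotated 3′ UTR. The sites, from GENCODE 29 transcripts on GRCh38, are on the minus strand for IL11 (chr19:55365597-55365619) and IL6ST (chr5:55935224-55935246) and on the plus strand for IL6R (chr1:154466124-154466146) and IL10RB (chr21:33296648-33296670, chr21:33296968-33296990, chr21:33310050-33310072 and chr21:33310144-33310166). Capitals mark the 7 bases.
IL11: acaaaaatGTGAGAAacctttgt
IL10RB, first: ttttaattGTGAGAAacagggcc
IL10RB, second: aaaaaattGTGAGAAacagaaat
IL10RB, distal exon, first: aggacacaGTGAGAAtgtagcca
IL10RB, distal exon, second: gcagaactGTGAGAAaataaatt
IL6R: gacctcagGTGAGAAgcagagga
IL6ST: tttttttaGTGAGAAttatcccc

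The copies differ in what flanks them. The IL11 copy and both copies in the main IL10RB 3′ UTR are followed by A and sit in the longer sequence TGTGAGAAAC, whereas the IL6R copy is followed by G and the IL6ST copy by T. The IL6ST copy lies 137 bases from the end of a 5990-base 3′ UTR, and the IL6R copy 755 bases into one of 4073 bases. Their log2 ratios were 0.25 for IL6R and -0.21 for IL6ST, so genes of the set with 1 copy ranged from -1.25 to 0.25. Without a copy, the ratios ran from -0.35 for JAK1 to 0.09 for SOCS3. Which last exons RKO cells use cannot be read from counts per gene.

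Across all 10810 measured protein-coding genes with an annotated 3′ UTR, the ratio went down with the number of copies in the longest 3′ UTR. The 9034 genes with 0 copies had a median log2 ratio of -0.01, the 1442 with 1 copy -0.12 and the 334 with 2 or more -0.23. Genes with more copies have longer 3′ UTRs, with medians of 1462, 2959 and 4944 bases. Among 3′ UTRs of 1000 to 2500 bases, which cover IL11, the medians were -0.02, -0.10 and -0.25. The sequence was known from earlier results of these data, so this order, also at like length, is a description and supports nothing. In the 3′ UTR of the longest coding sequence, the 508 genes with 1 copy of GTGAGAAA had a median of -0.17. The 37 genes with 2 or more copies, among them IL10RB, had a median of -0.35. The longest 3′ UTRs of those 37 had a median of 5944 bases, against 1868 bases for IL10RB. IL11 and IL10RB lay well below these medians, but their low values chose the set, so their ranks support nothing. Of the 1442 genes with 1 copy, 9 had a lower ratio than IL11. Of the 334 with 2 or more in the longest 3′ UTR, which for IL10RB is the distal one, 6 had a lower ratio than IL10RB. The longer sequence TGTGAGAAAC is the longest stretch shared by the IL11 copy and both main IL10RB copies, taken after the sites had been seen. It occurred in the 3′ UTR of the longest coding sequence of 32 genes. IL11 and IL10RB had the lowest ratios of these, which supports nothing, since the sequence was taken from these genes and they were chosen as low. The other 30 ran from -0.59 to 3.06 with a median of -0.14. Genes with 1 copy of GTGAGAA in the same choice of 3′ UTR also had a median of -0.14, and those with 1 copy of GTGAGAAA had -0.17. Of the 11 listed genes outside the set with a log2 ratio of -0.5 or lower, 3 held a copy in the longest 3′ UTR and 8 held none. Over all 10810 genes 16.4% held a copy, and nothing is read from so small a count. CCND1 held 2 copies and GAB1 and PTPN1 held 1 each, whereas IL11RA, SBNO2, FOS, IL22RA1, IFNAR1, SH2B3, PIM1 and SOCS5 held none. An siRNA, like a microRNA, can lower transcripts whose 3′ UTR pairs with bases 2 to 8 of its guide strand. The siRNA sequences are not given and could not be searched for such pairing. In a search of the 2545 mature microRNA entries of the RefSeq table (GRCh38.p14), none was found whose bases 2 to 8 pair with GTGAGAA. A part of an siRNA or of a microRNA was not tested. The part of these sites in the ratios of IL11 and IL10RB was not tested.

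**Figure D4:**
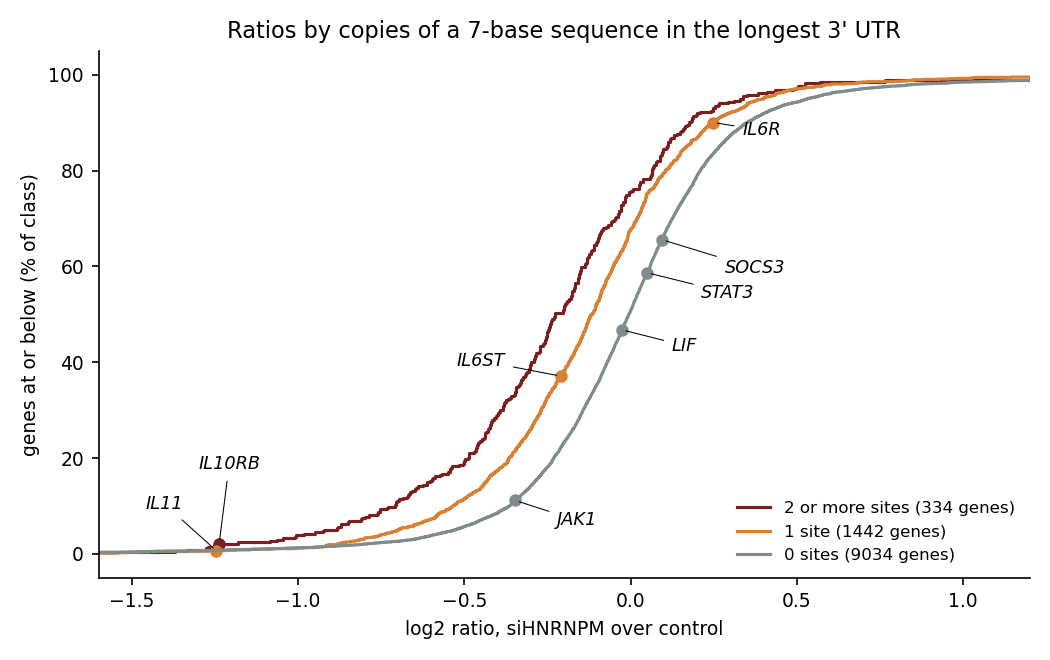
Cumulative share of genes (vertical axis, percent of the class) at or below each log2 ratio, siHNRNPM over control (horizontal axis), for genes with 2 or more, 1 or 0 copies of the 7-base sequence in the longest 3′ UTR, with the 8 measured genes of the set marked on the curve of their class. The curves are ordered by the number of copies, and IL11 and IL10RB sit at the lower end of theirs. The sequence was known from earlier results of these data and both genes were chosen as low, so this supports nothing.

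For a different 3′ UTR sequence, ATTTA, IL11 had a high density. Its 1621-base 3′ UTR holds 9 copies of ATTTA, the core of AU-rich elements that mark many short-lived cytokine mRNAs, or 5.55 per kilobase, a density reached by 4.58% of the 10810 genes. The LIF 3′ UTR holds 2.18 per kilobase and that of IL10RB 1.07 in its longest, distal form and 1.14 in the 880-base form, against a median of 1.53. IL11 is thus above the median and IL10RB below it, and the part of ATTTA in their ratios was not tested. IL6ST held 3.40 per kilobase at a log2 ratio of -0.21, and LIFR and OSMR, which were hardly read, held 4.37 and 3.64.

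The promoters of IL11 and IL10RB, 250 bases before to 50 after the start, are shown since both genes were lower together. They were searched on both strands for TGANTCA, the AP-1 consensus, and TTCNNNGAA, the core of STAT sites, each of which reads the same on both strands. The windows come from RefSeq on GRCh38.p14, on the minus strand at chr19:55370414-55370713 for IL11 and on the plus strand at chr21:33266117-33266416 for IL10RB. Capitals mark matches.
IL11: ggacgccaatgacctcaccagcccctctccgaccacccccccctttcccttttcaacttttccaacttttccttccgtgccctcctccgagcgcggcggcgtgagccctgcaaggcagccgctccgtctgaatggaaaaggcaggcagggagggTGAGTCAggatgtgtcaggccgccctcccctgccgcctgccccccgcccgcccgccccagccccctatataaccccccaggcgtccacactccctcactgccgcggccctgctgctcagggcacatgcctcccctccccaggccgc
IL10RB: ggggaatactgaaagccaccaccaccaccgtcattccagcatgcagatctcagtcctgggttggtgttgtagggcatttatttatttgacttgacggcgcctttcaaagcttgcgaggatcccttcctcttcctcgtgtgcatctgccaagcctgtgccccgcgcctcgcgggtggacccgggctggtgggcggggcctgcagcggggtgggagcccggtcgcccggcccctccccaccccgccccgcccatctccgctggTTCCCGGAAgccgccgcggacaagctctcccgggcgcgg

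The IL11 window held 1 TGANTCA and no TTCNNNGAA, and the IL10RB window held 1 TTCNNNGAA and no TGANTCA, so they shared neither. Of the 35116 promoter windows in the table, 7.71% held TGANTCA and 7.66% held TTCNNNGAA. IL6R and OSMR each had 1 TGANTCA, and 2 of the 3 LIFR starts had 1 TTCNNNGAA. A match here is a description of letters and not a bound site. Both IL11, below a ratio of 1, and IL6R, above it, held a TGANTCA match, and the part of such matches in the ratios was not tested.

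With 2 libraries, likeness to IL11 or IL10RB can only mean a close log2 ratio and mean CPM. The 3 protein-coding genes nearest to IL11 by the distance over those values, among 10811, were TGFBR3 (-1.28), PLXNA2 (-1.18) and LRP11 (-1.21). Those nearest to IL10RB were FBXL16 (-0.96), BTG3 (-0.91) and H6PD (-0.87), each with a ratio nearer to 1 than IL10RB itself. Next to IL11 in the genome, the measured neighbours COX6B2 and RPL28 had -0.48 (-1.40 to 0.39) and 0.28 (0.24 to 0.33).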

How the data were processed

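The authors deposited raw read counts, 1 whole number per gene symbol and library, for 2 libraries, without normalization. HISAT2 2.0.4 and GRCh38 are listed, with no stated role, per the submitters' processing notes; the read counter, annotation, strand setting and handling of shared reads are not given in the sources used here. Columns were tied to libraries by title and groups came from the treatment labels. Counts were scaled by TMM in edgeR 4.0.16 (R 4.3.3). Log2 ratios set a count of 0 to 0.5, with Clopper-Pearson 95% intervals of the split of a gene's reads between the libraries (SciPy 1.17.1). No molecular identifiers are stated, so intervals treat each read as independent. Calls and intervals were tested on simulated Poisson counts without variation between cultures, so that test covers counting error only. All members, all measured neighbours and list genes were eligible for naming, in lists of over 8 measured genes those with a log2 ratio of at least 0.5 in size and an interval off 0; others named there were chosen after their values were seen. Members, lists and searched sequences were chosen with earlier results of these data known. Transcript lengths, positions and 3′ UTRs came from GENCODE 29, promoters and microRNAs from RefSeq; all 10 members matched by symbol. Alternatives covered scaling (DESeq2 1.42.0 size factors among them), depth, filters, fold and transcript choice. 1 listed gene is not reported here.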

Additional observations from a re-analysis of the deposited data

How the results depend on the processing

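Total-count, DESeq2 and upper-quartile scaling and thinning of the control library to the siHNRNPM total moved no log2 ratio of a measured member outside its interval: IL11 ran from -1.28 to -1.21, IL10RB from -1.25 to -1.21, IL6R from 0.23 to 0.28 and SOCS3 from -0.01 to 0.13. Each scaling shifts every ratio by the same amount, with medians over all measured features from -0.02 to 0.02, so little movement was possible. Of 172 alternative values, 145 stayed with the main one and 27 moved, 16 of them levels per kilobase under the median transcript length. A count stayed if within 1.5-fold of the main one, and a ratio or level if inside its interval. A median stayed if within a margin set by the typical interval of its genes. With calls that required an interval entirely past 2-fold, 1 member (IL10RB) was lower, and over all features 27 were lower and 66 higher. At 1.5-fold 589 were lower and 646 higher, without a CPM filter 301 and 602, and at a CPM of 5 or more 50 and 70, as the looser or stricter rules let more or fewer features through. Without a CPM filter the median of the set was -0.28, as LIFR and OSMR entered with at most 4 reads, and that of the IL6-family receptors was -0.40, as IL31RA entered too. In the 3′ UTR of the longest coding sequence, an alternative chosen after seeing the data, the medians for 0, 1 and 2 or more copies of GTGAGAA were -0.01, -0.14 and -0.25. Depth limits LIFR, OSMR and IL11RA most. No paired analysis was possible because each group had 1 library.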
